A study of Rattus norvegicus with 8 samples.

Results

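Fibroblasts of nerve and cord coats and the extracellular matrix that they lay down were followed through 10 genes on 8 one-colour Agilent arrays of rat tissue and cells. The genes are Pi16, Mfap5, Dcn, Lum and Fbln1, grouped here as genes of resting fibroblasts, Postn, Tnc, Cthrc1 and Fn1, grouped as genes of scar matrix, and Thy1, a cell surface marker kept in neither group. They were chosen by name, with earlier results of these data known, and are 10 of the 12765 genes that carried a symbol in the authors' value table. Where several probes matched a gene, the one with the highest mean level was used. The 3 nerve groups, all on day 1, were the proximal and the distal segment of the left sciatic nerve, cut in adult female Sprague-Dawley rats of 200 to 225 g, and the right, contralateral nerve, whose label also calls it a PBS injection site. The 2 spinal cord groups, at day 5, were labelled as a dorsal hemisection and as a C-level control; their labels count the days from an injection and the protocol from an injury, and the substance injected is not named in these sources. Each nerve and cord sample pooled 3 animals of the same strain. The 3 culture groups were primary Schwann cells, the myelinating glia of peripheral nerve, from the sciatic nerves of Sprague-Dawley pups of postnatal day 1 to 3. They were kept unstimulated, or given S100A8/A9, a complex of calcium-binding proteins that is abundant in neutrophils, at 5 µg/ml for 1 h or for 24 h. All cultures were grown with forskolin at 4 µM and 10% fetal bovine serum and used at passages 3 to 7. The only unstimulated culture was of 24 h and had to serve for both times. Per the protocol, fibroblasts had been removed from the cultures with AraC, complement and an antibody described as directed at fibronectin and Thy1.1, so the products of Fn1 and Thy1 were themselves part of the purification.

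Nerve and cord are wrapped in connective tissue whose fibroblasts secrete collagen and the small proteins that organise it. In resting tissue these cells are known for decorin and lumican, proteoglycans that space collagen fibrils, for fibulin 1 and microfibril proteins, and, around vessels and in fascia, for Pi16. After injury fibroblasts and other cells can deposit a provisional matrix of fibronectin, tenascin C and periostin, proteins that signal to cells through integrins and syndecans and are called matricellular where they act more on cells than on the strength of the tissue.

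Samples are named here by the column headings of the value table. For 7 of the 8 samples the scanner file that ranks probes as the column does was recorded under another sample. Every direction below therefore rests on the headings. Values by that record, which stand with the alternatives, compare the scans filed under the named samples. For these 7 samples the filed scan matches a column headed as another sample. With 1 array in each group, differences have no replicate check and carry no test, and the errors after ± are technical, taken from replicate spots. The share of the 30367 probes well above background ranged from 66.7% to 77.6% per array. Neuron and macrophage markers went with the headings. The summed level of a list is the log2 of the sum of its unlogged levels, so the brightest probes weigh most. For 9 neuron markers it was 17.63 and 16.23 in the cord samples and 11.15 to 13.35 elsewhere. For 12 macrophage markers it was 9.75 to 9.84 in the Schwann cells against 16.41 to 18.29 in the tissues. All 12 Schwann cell markers were well above background on all 8 arrays. Their summed level did not set the cultures apart, at 18.39 in the unstimulated Schwann cells, 18.90 in the C-level cord and 18.73 in the hemisection. Summed mural and meningeal markers were higher in the unstimulated Schwann cells (15.16 and 14.67) than in any tissue sample (at most 14.33 and 14.18). Most single genes of both lists went the other way against the contralateral nerve. Of 10 mural markers 2 were at least 2-fold higher in these cultures and 7 lower (median log2 ratio -2.98). Of 7 meningeal markers 1 was higher and 4 were lower (median -4.09).

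With the probes used, each of the 5 resting fibroblast genes had its highest level in the contralateral nerve and its lowest levels in the Schwann cell cultures. By the second Pi16 probe the cultures were not the lowest. Against the contralateral nerve it read -2.19 in the unstimulated Schwann cells and -2.33 in the distal nerve. It put the contralateral nerve 2.73 above the C-level cord. Values are the authors' log2 levels, and each gene is compared only with itself, since levels of different probes share no scale. In bulk samples, fewer cells of a type and less RNA per cell cannot be told apart. Dcn (NM_024129) encodes decorin, a proteoglycan that binds collagen fibrils and transforming growth factor beta. Its level was 17.49 in the contralateral nerve, 16.26 in the proximal and 16.00 in the distal segment, 12.74 in the C-level cord and 13.94 in the hemisection. In the Schwann cells it read 2.73 unstimulated, 1.77 at 1 h and 2.94 at 24 h, and its probe was not well above background on any of these 3 arrays. Dcn had 10 replicate spots on each array, more than any other of the 10 genes, and had the smallest technical errors in the tissues. Lum (NM_031050), the related collagen-binding proteoglycan lumican, stood at 12.73, 12.15 and 11.82 in the contralateral, proximal and distal nerve and at 6.83 and 9.80 in the C-level cord and the hemisection. Its readings of 1.77, 1.79 and 1.78 in the unstimulated, 1 h and 24 h Schwann cells were also not well above background. The 3 nerve samples and the 2 cord samples did not overlap for either proteoglycan. Such separation was not counted over all genes. Between the contralateral nerve and the C-level cord alone, 19.8% of 12214 genes were at least 2-fold higher and 18.3% lower.

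Mfap5 (NM_001108644) encodes a glycoprotein of elastin-associated microfibrils. It read 17.18 in the contralateral nerve, 15.50 in the proximal and 15.45 in the distal segment, 13.27 in the C-level cord and 13.51 in the hemisection. Its probe stayed well above background in the Schwann cells, at 11.31 unstimulated, 8.46 at 1 h and 11.20 at 24 h. The proximal and distal segments differed by little more than their technical error (-0.06 ± 0.05), while the 1 h culture stood apart from both other cultures. Pi16 (NM_001170481), a secreted peptidase inhibitor and a marker of adventitial fibroblasts, read 14.13, 12.16 and 12.26 in the contralateral, proximal and distal nerve, 11.02 in the C-level cord and 11.90 in the hemisection. Its Schwann cell values of 8.78, 8.84 and 8.80 (unstimulated, 1 h, 24 h) lay within 0.07 of each other, less than the technical error of 0.13. Pi16 was represented by a probe with 1 spot, and a second probe of the gene is given beside the results. Fbln1 (NM_001127547), fibulin 1 of basement membranes and elastic fibres, had the narrowest range of the 5, 3.51. Its level was 8.96 in the contralateral, 8.30 in the proximal and 7.87 in the distal nerve, 8.34 in the C-level cord, 8.81 in the hemisection and 5.84, 5.44 and 5.58 in the unstimulated, 1 h and 24 h cultures. The nerve and cord samples overlapped for Fbln1.

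With the probes used, the 4 scar matrix genes had their lowest level in the C-level cord. Of these, 3 had their highest level in the Schwann cells given S100A8/A9 for 1 h. For Fn1 that place was narrow, at 15.36 against 15.31 in the proximal nerve. The second Fn1 probe read -0.01 at 1 h against the unstimulated cells. Postn (NM_001108550) encodes periostin, a secreted protein of healing tissue that binds integrins and collagen. It read 13.12, 14.14 and 13.12 in the unstimulated, 1 h and 24 h Schwann cells, 10.70, 9.14 and 10.24 in the contralateral, proximal and distal nerve, 4.41 in the C-level cord and 9.72 in the hemisection. Tnc (NM_053861), tenascin C, a large matrix glycoprotein of developing and injured tissue, stood at 12.53, 13.10 and 12.78 in the same order of cultures. Its nerve levels were 9.20, 10.06 and 9.44 in the contralateral, proximal and distal nerve, and its cord levels 5.74 and 9.32 in the C-level cord and the hemisection. For Postn and Tnc the cultures did not overlap with any tissue. This separation too was not counted over all genes. Between the unstimulated Schwann cells and the contralateral nerve 21.5% of 11943 genes were at least 2-fold higher and 20.8% lower. Fn1 (NM_019143), fibronectin, which cells bind through integrins, spanned only 2.47 over the 8 arrays. It read 14.96, 15.31 and 15.20 in the contralateral, proximal and distal nerve, 12.89 in the C-level cord, 14.17 in the hemisection and 15.26, 15.36 and 15.22 in the unstimulated, 1 h and 24 h cultures. Nerve and cultures overlapped for Fn1, and both cord samples were lower with this probe. By the second Fn1 probe the hemisection was not below the contralateral nerve. Against the C-level cord it read 2.37 in the hemisection and 1.59 in the contralateral nerve. Cthrc1 (NM_172333), a secreted protein of matrix-producing fibroblasts, was the exception, with its highest level in the hemisection. Its levels were 10.49 there, 5.40 in the C-level cord, 9.25, 10.09 and 10.18 in the contralateral, proximal and distal nerve and 8.34, 9.04 and 8.40 in the unstimulated, 1 h and 24 h cultures.

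Thy1 (NM_012673) encodes a surface glycoprotein that fibroblasts share with neurons, and it followed neither group. It was highest in the cord, at 10.49 in the C-level control and 8.95 in the hemisection, and lowest in the nerve, at 6.72 contralateral, 6.34 proximal and 6.39 distal. The Schwann cells lay between, at 8.55 unstimulated, 8.26 at 1 h and 8.85 at 24 h. The nerve values lay within 0.38 of each other with technical errors up to 0.23. The neuron markers were higher in the cord than in the nerve as well (0 of 9 higher and 9 of 9 lower in the contralateral nerve, median log2 ratio -7.46). In the unstimulated Schwann cells 5 of 9 neuron markers were well above background, with Snap25, Syt1, Nefh and Gad1 not well above it. Their part in the Thy1 level was not tested.

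**Figure D1:**
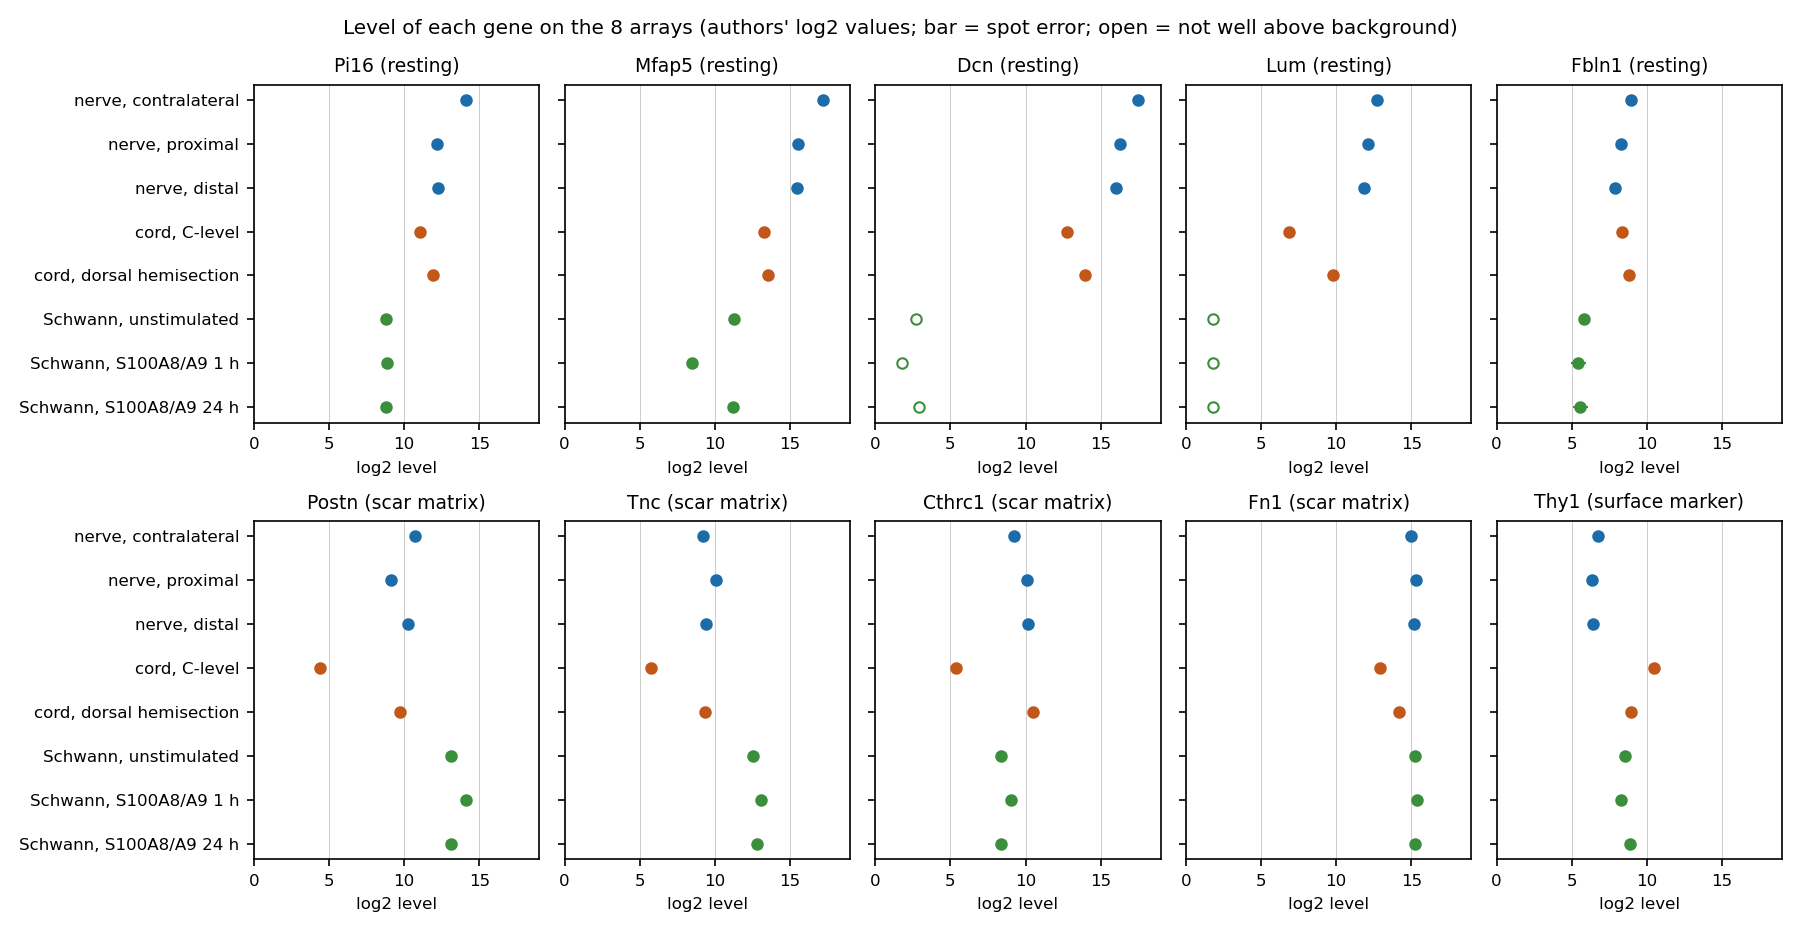
Level of each of the 10 genes (authors' log2 values, x axis) on each of the 8 arrays, 1 array per group (y axis; nerve blue, cord orange, Schwann cells green), with bars for the spot error and open symbols where the probe was not well above background. The resting genes are highest in the contralateral nerve, Postn and Tnc are highest in the Schwann cells, and Thy1 is highest in the cord.

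RefSeq promoters, from 250 bases before to 50 bases from the start of the gene (assembly GRCr8), were on hand for 5 of the 10 genes, Postn, Tnc, Lum, Mfap5 and Pi16. The 3 printed here belong to the genes among them that were more than 2-fold higher in the hemisection than in the C-level cord, and are given 5′ to 3′ in the direction of the gene. Postn lies at chr2:140677811-140678110 on the plus strand, Tnc at chr5:82476082-82476381 on the minus strand and Lum at chr7:34245456-34245755 on the plus strand. Capitals mark a match to one of the motifs searched.
Postn: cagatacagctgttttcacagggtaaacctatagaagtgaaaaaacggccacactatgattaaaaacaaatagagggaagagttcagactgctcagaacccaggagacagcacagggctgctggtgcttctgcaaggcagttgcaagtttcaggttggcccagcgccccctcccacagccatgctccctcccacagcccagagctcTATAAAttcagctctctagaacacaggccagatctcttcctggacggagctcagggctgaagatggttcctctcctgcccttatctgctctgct
Tnc: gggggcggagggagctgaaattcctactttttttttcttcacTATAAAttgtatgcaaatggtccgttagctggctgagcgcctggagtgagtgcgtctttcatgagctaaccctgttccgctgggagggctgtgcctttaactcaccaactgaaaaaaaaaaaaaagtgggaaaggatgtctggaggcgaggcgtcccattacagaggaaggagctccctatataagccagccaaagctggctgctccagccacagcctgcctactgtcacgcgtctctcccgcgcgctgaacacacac
Lum: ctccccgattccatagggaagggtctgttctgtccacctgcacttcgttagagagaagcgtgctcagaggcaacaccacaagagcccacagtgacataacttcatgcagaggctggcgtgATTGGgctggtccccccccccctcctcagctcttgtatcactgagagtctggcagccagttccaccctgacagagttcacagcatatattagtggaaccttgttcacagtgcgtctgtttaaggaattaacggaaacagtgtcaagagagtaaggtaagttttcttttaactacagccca
The motifs, searched on both strands, were the TATA box (TATAAA), the AP-1 site (TGANTCA), the TEAD site (GGAATG), the CCAAT box (CCAAT) and the CArG box. Postn held a TATAAA that begins 44 bases before the start and Tnc one that begins 208 bases before it. Lum held a CCAAT box on the reverse strand 130 bases before the start, and Mfap5 one on the reverse strand 200 bases before it. No match was present in this window of Pi16. TATAAA was present in 14.3% of 27457 promoters of this length, CCAAT in 37.7%, the TEAD site in 13.9%, the AP-1 site in 7.33% and the CArG box in 1.64%. A match describes these letters and is not a site of binding.

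The first comparison set the nerve beyond the cut against the contralateral nerve. All 5 resting fibroblast genes were lower in the distal nerve, and 4 of them at least 2-fold. Pi16 was 3.66-fold lower (log2 ratio -1.87 ± 0.11), Mfap5 3.33-fold (-1.74 ± 0.07), Dcn 2.80-fold (-1.48 ± 0.03) and Fbln1 2.13-fold (-1.09 ± 0.13), and Lum was 1.87-fold lower (-0.91 ± 0.07). The second Pi16 probe read -2.33. Of the scar matrix genes none was 2-fold apart: Cthrc1 stood at 0.93 ± 0.09, Fn1 at 0.24 ± 0.07, Tnc at 0.24 ± 0.09 and Postn at -0.46 ± 0.08. The second Fn1 probe read 0.94, so the size of that ratio depended on the probe. Thy1 stood at -0.33 ± 0.23. Past 2-fold were 0 of the 10 genes in the higher and 4 in the lower direction, beside 13.4% and 14.3% of all 12131 genes measured. The median log2 ratio was 0.24 for the scar matrix genes and -1.48 for the resting genes, a gap of 1.72 ± 0.07, beside a median of 0.01 over all genes. By the recorded pairing of scans and samples the gap was -1.69. Pi16, Mfap5 and Dcn were then higher in the scan filed under the distal nerve (0.44, 2.26 and 2.42). The scan filed under the contralateral nerve ranks as the hemisection column does.

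Genes of related function showed where the resting genes stood. Of 9 other small leucine-rich proteoglycans, the family of Dcn and Lum, 7 were at least 2-fold lower and 0 higher in the distal nerve (median -1.85). Osteomodulin, Omd, was at -3.35 and osteoglycin, Ogn, at -2.38, while Chad was at 0.05 and Nyx at -0.27. Of 16 general fibroblast genes 8 were lower and 1 higher (median -1.01), from Fndc1 at -3.10 and Igfbp6 at -2.19 to Ly6c at 1.58. The perineurium list, of the cells that sheathe nerve bundles, had 7 of 10 lower and 0 higher (median -2.19), with the keratin Krt19 at -3.16 and the tight junction protein Cldn1 at -2.75. Endoneurial fibroblast genes had 2 of 6 lower and 1 higher (median -0.87; Osr2 -2.43, Ccl11 1.01), and tendon and cartilage genes had 3 of 6 lower (median -1.63; the tendon factor Scx -3.04, Cilp -2.94). Of 17 microfibril and elastic fibre genes, the partners of Mfap5 and Fbln1, 4 were lower and 1 higher (median -0.28; Mfap2 -2.11, Ltbp4 -1.92, Ltbp2 1.22).

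Among genes related to the scar matrix group, 8 of 17 other matricellular genes were lower and 2 higher in the distal nerve (median -0.92). The higher ones were Thbs1, thrombospondin 1, at a log2 ratio of at least 3.25, and Angptl4 at 2.39; Sparcl1 was at -2.97 and Smoc2 at -1.78. Activated fibroblast and myofibroblast genes were divided, with 4 of 17 higher and 6 lower (median 0.39), from the protease inhibitor Timp1 at 2.27 and podoplanin, Pdpn, at 2.09 to Ddah1 at -1.75 and N-cadherin, Cdh2, at -2.83. Receptors that bind fibronectin, tenascin or periostin were also divided, with 3 of 11 higher and 3 lower (median 0.19; syndecan 1, Sdc1, 2.63, Itga4 1.84, Itga8 -1.72, Ptprz1 -1.44). Marker lists of other cells moved in this comparison too. Of 12 macrophage markers 9 were at least 2-fold higher and 0 lower (summed level 17.36 contralateral and 18.14 distal), and of 9 neutrophil markers 7 were higher and 0 lower (9.40 and 14.32). Of 12 Schwann cell markers 7 were lower and 1 higher (19.42 and 18.52), and of 10 adipocyte markers 4 were lower and 0 higher (16.33 and 15.32). Of 10 skeletal muscle markers 7 were higher and 0 lower (median 1.38; 11.60 and 12.75). The part of these cells in the values of the 10 genes was not tested.

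**Figure D2:**
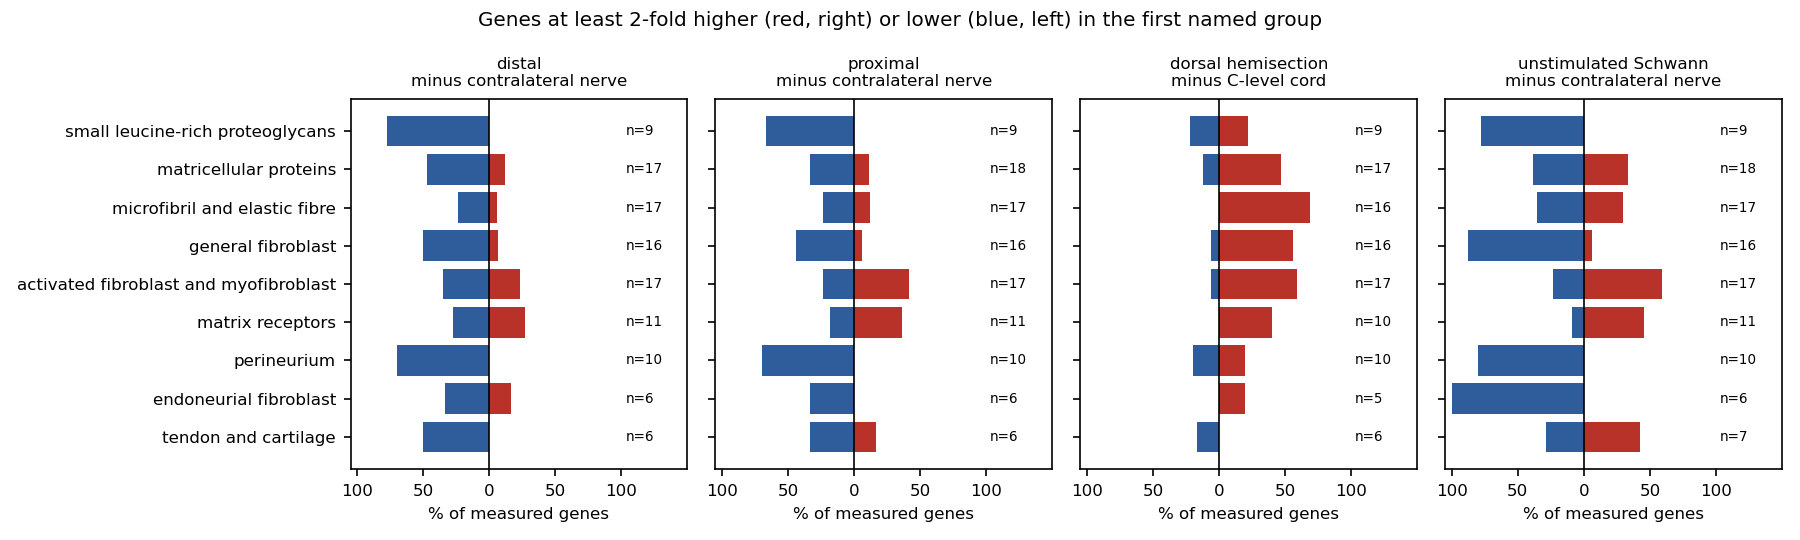
Percentage of the measured genes of each list (x axis, n genes at the right) that were at least 2-fold higher (right) or lower (left) in the first named group, in 4 comparisons of 1 array against 1 array. In both cut nerve segments the proteoglycan and perineurium lists lie to the left, with 7 of 9 and 7 of 10 genes lower in the distal nerve, and in the hemisection the microfibril list lies to the right, with 11 of 16 genes higher.

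The proximal segment was set against the same contralateral array, so the 2 nerve comparisons share their control and are not independent. Pi16 was 3.91-fold lower (-1.97 ± 0.11; second probe -2.09), Mfap5 3.20-fold (-1.68 ± 0.07) and Dcn 2.34-fold (-1.23 ± 0.03) in the proximal nerve. Fbln1 (-0.66 ± 0.09) and Lum (-0.57 ± 0.08) were lower by less than 2-fold. Among the scar matrix genes Postn was 2.94-fold lower (-1.55 ± 0.09), while Tnc was 1.81-fold higher, Cthrc1 1.78-fold higher (0.84 ± 0.09) and Fn1 1.27-fold higher (0.35 ± 0.07), with the second Fn1 probe at 0.90. Thy1 stood at -0.38 ± 0.23. Against the 0 genes of the 10 that were at least 2-fold higher and the 4 that were lower stand 11.1% and 11.8% of 12242 genes measured. The scar matrix median of 0.59 and the resting median of -1.23 gave a gap of 1.82 ± 0.07. All 10 genes were at least 2-fold apart with the scans as recorded, and the gap was 7.78. Postn was then higher in the scan filed under the proximal nerve (4.59). That scan ranks as the Schwann cell column of 1 h does, and the one filed under the contralateral nerve as the hemisection column.

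In the related lists 6 of 9 proteoglycans were lower in the proximal nerve and 0 higher (median -1.65; Omd -2.91), as were 7 of 16 general fibroblast genes, with 1 higher (median -0.86; Fndc1 -2.98, Gsn -1.96), and 7 of 10 perineurium genes, with 0 higher (median -1.64; Krt19 -2.38). Matricellular genes had 2 of 18 higher and 6 lower (median -0.56; Thbs1 at least 3.41, Sparcl1 -2.59), and microfibril genes 2 of 17 higher and 4 lower (median -0.41; Ltbp2 2.12, Mfap2 -2.01). Of 17 activated fibroblast genes 7 were higher and 4 lower (median 0.14), led by the activin subunit Inhba at 3.82 and Timp1 at 2.44, with Cdh2 at -2.25 and the protease Fap at -1.44. Receptor genes had 4 of 11 higher and 2 lower (median 0.31; Sdc1 3.38, the hyaluronan receptor Cd44 1.65). Endoneurial fibroblast genes had 2 of 6 lower (median -0.72), and tendon and cartilage genes 2 of 6 lower and 1 higher, the tendon gene Tnmd at 1.07 (median -0.73). Skeletal muscle markers were higher here as well: 11 of 11 were at least 2-fold higher in the proximal nerve (median 4.30; the myosin Myh4 6.77), with a summed level of 15.86 against 11.60 contralateral and 12.75 distal. Of 12 macrophage markers 7 were higher and of 9 neutrophil markers 8, with 0 lower in either list, and 9 of 10 adipocyte markers were lower and 1 higher (summed level 14.73 proximal and 16.33 contralateral). The part of muscle, fat or leukocytes in the values of the 10 genes was not tested.

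Set directly against each other, the distal and proximal segments differed by 2-fold in 1 of the 10 genes. Postn was 2.13-fold higher in the distal nerve (1.09 ± 0.07), with 9.14 proximal and 10.24 distal. Tnc went the other way (-0.62 ± 0.07), and the other 8 genes lay between -0.43 for Fbln1 and 0.10 for Pi16. The second Pi16 probe read -0.23 and the second Fn1 probe 0.03, against -0.10 for the Fn1 probe used, so neither gene had the same sign in both probes. Past 2-fold were 1 of the 10 genes in the higher direction and 0 in the lower, beside 1.24% and 1.94% of 12222 genes. The gap was 0.25 ± 0.05, from a scar matrix median of -0.01 and a resting median of -0.26. After normexp background correction Postn stood at 0.97 and no longer passed 2-fold, and with the scans as recorded it stood at -4.12. The 11 muscle markers were all at least 2-fold lower in the distal than in the proximal nerve (median -3.66), and their part in the Postn and Tnc ratios was not tested.

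The cord comparison asked how the hemisection sample differed from the C-level control, and all 4 scar matrix genes were more than 2-fold higher in the hemisection. Only the label of the control names a cord level, so level and hemisection cannot be told apart here. Postn was 39.4-fold higher in the hemisection (5.30 ± 0.30), Cthrc1 34.1-fold (5.09 ± 0.30), Tnc 11.9-fold (3.58 ± 0.16) and Fn1 2.42-fold (1.28 ± 0.05), with the second Fn1 probe at 2.37. Each of the 5 resting genes was higher as well, from Lum at 7.81-fold (2.97 ± 0.15) and Dcn at 2.31-fold (1.21 ± 0.02) to Pi16 at 1.84-fold (0.88 ± 0.08), Fbln1 at 1.38-fold (0.47 ± 0.08) and Mfap5 at 1.18-fold (0.24 ± 0.05). The second Pi16 probe read 0.02, so a higher Pi16 rested on 1 of its 2 probes. Thy1 was 2.89-fold lower (-1.53 ± 0.07). In all, 6 of the 10 genes were at least 2-fold higher and 1 lower, beside 10.2% and 9.24% of 12196 genes measured. The scar matrix median of 4.33 and the resting median of 0.88 gave a gap of 3.46 ± 0.19, with Lum nearer the scar matrix genes than the other resting genes were. The sizes were smaller with normexp and quantile normalization of the matched scans, which gave Postn 3.27, Cthrc1 3.57, Tnc 2.56 and a gap of 2.04. By the recorded pairing none of the 8 genes then measured was 2-fold apart, Dcn and Lum having no value, and Tnc and Cthrc1 stood at -0.25 and -0.06.

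Other matrix lists were higher in the hemisection too. Of 16 microfibril and elastic fibre genes 11 were at least 2-fold higher and 0 lower (median 1.55), led by Ltbp2, a binding protein of latent growth factor, at 3.11 and elastin, Eln, at 2.81, with Efemp1 at 0.16. Of 17 matricellular genes 8 were higher and 2 lower (median 0.72), from the tenascin Tnn at a log2 ratio of at least 5.35 and osteopontin, Spp1, at 2.59 to Comp at -1.15 and Sparcl1 at -1.32. Activated fibroblast genes had 10 of 17 higher and 1 lower (median 1.30; Fap 3.43, Lrrc15 at least 2.83, Cdh11 -1.40), and general fibroblast genes 9 of 16 higher and 1 lower (median 1.28; the gelatinase Mmp2 2.67, Sfrp4 2.14, Dpp4 -1.02). Receptors had 4 of 10 higher and 0 lower (median 0.84; Sdc1 3.45, the fibronectin receptor subunit Itga5 2.84). The proteoglycans were divided, with 2 of 9 higher and 2 lower (median 0.36; biglycan, Bgn, 1.30, Fmod 1.16, Aspn -1.60, Chad -3.02). Perineurium genes had 2 of 10 in each direction (median -0.13; Msln 3.00), endoneurial fibroblast genes 1 of 5 higher (median -0.18) and tendon and cartilage genes 1 of 6 lower (median -0.41).

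Markers of several cells differed between the cord samples beside these genes. Of 12 macrophage markers 11 were at least 2-fold higher in the hemisection and 0 lower (summed level 16.41 in the control and 18.29 in the hemisection), and of 10 neutrophil markers 8 were higher and 0 lower (10.64 and 12.40). Schwann cell markers had 6 of 12 higher and 0 lower (Prx 2.73), though their summed level was 18.90 and 18.73. Neuron markers had 7 of 9 lower and 0 higher (17.63 and 16.23; Snap25 -2.36). Of 7 meningeal markers 0 passed 2-fold in either direction (median 0.43; 13.46 and 13.95). The C-level control held more of 2 further lists: 8 of 10 adipocyte markers and 8 of 11 muscle markers were lower in the hemisection, with 0 higher, and among them Adipoq was at most -6.65 and the brown fat gene Ucp1 -6.25. The part of these cells in the cord values of the 10 genes was not tested.

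**Figure D3:**
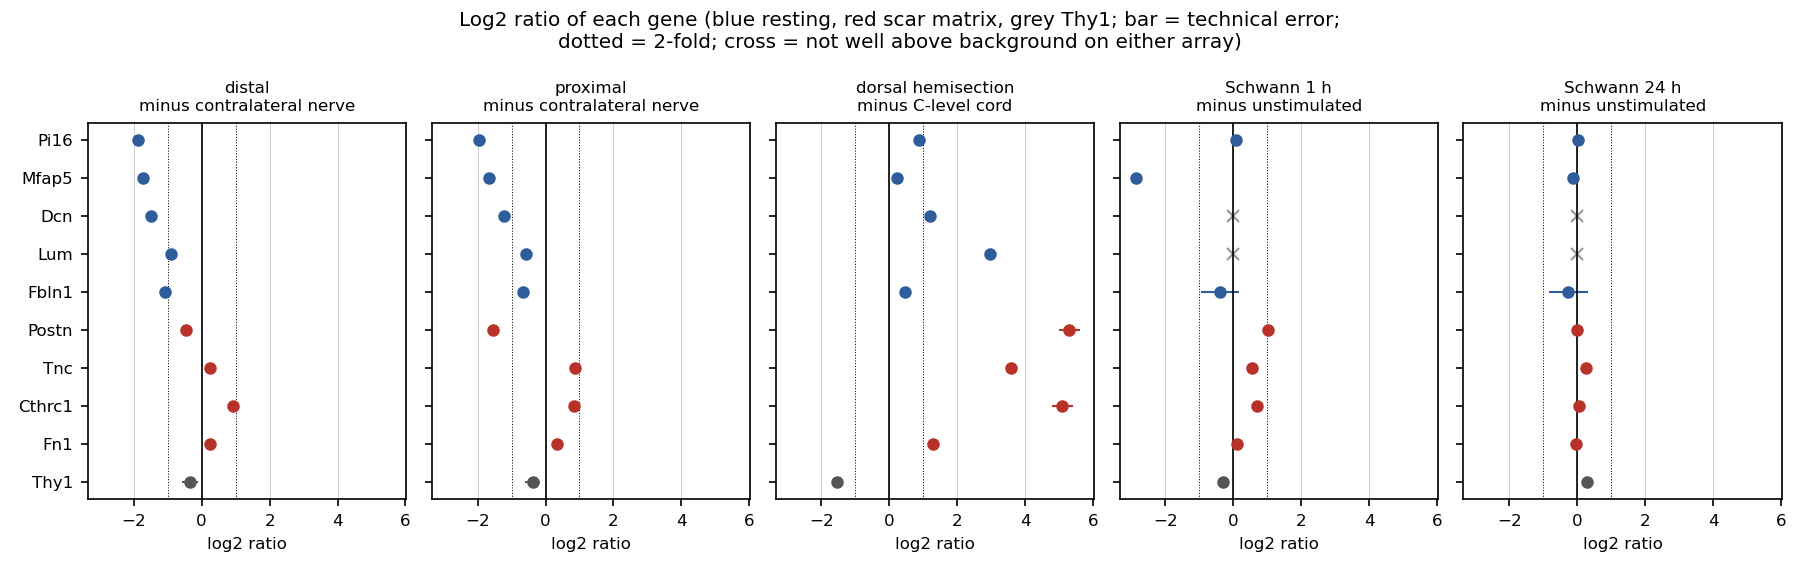
Log2 ratio (x axis) of each of the 10 genes (y axis) in 5 comparisons of 1 array against 1 array, each sample against the one used as its control. Bars give the technical error, dotted lines mark 2-fold and crosses mark probes not well above background on either array. The resting genes lie below 0 in both cut nerve segments, and all genes but Thy1 lie above 0 in the hemisection.

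The Schwann cell cultures given S100A8/A9 for 1 h and for 24 h were both set against the same unstimulated culture of 24 h. Of the 10 genes 8 could be compared, since Dcn and Lum were not well above background in any culture. At 1 h Mfap5 was 7.20-fold lower (-2.85 ± 0.07), and it was the resting gene most apart: Pi16 stood at 0.07 ± 0.13 and Fbln1 at -0.39 ± 0.56. The second Pi16 probe read -0.32. All 4 scar matrix genes were above 0, with Postn 2.03-fold higher (1.02 ± 0.05), Cthrc1 at 0.70 ± 0.09, Tnc at 0.56 ± 0.06 and Fn1 at 0.10 ± 0.05. The second Fn1 probe read -0.01, so the sign of Fn1 was not the same in its 2 probes. Thy1 stood at -0.29 ± 0.09. At least 2-fold apart were 1 gene higher and 1 lower of the 8, beside 1.69% and 1.34% of 10968 genes measured. The gap was 1.03 ± 0.56, from medians of 0.63 for 4 scar matrix genes and -0.39 for 3 resting genes. Postn lay close to the 2-fold limit and fell under it with normexp (0.99). Mfap5 stood at 1.59 and the gap at -1.79 with the scans as recorded.

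At 24 h no gene of the 8 was 2-fold apart. The largest ratios were those of Thy1 (0.30 ± 0.09), Fbln1 (-0.26 ± 0.57) and Tnc (0.25 ± 0.05). Mfap5 read -0.11 ± 0.06 and Postn -0.00 ± 0.05, so the levels of 11.20 and 13.12 at 24 h lay next to the unstimulated 11.31 and 13.12. Cthrc1 stood at 0.06, Pi16 at 0.02 and Fn1 at -0.04, with the second probes of Pi16 and Fn1 at 0.01 and -0.47. Beside the 0 genes of the 8 in either direction stand 0.635% of 11025 genes that were higher past that limit and 0.626% lower, and the gap was 0.14 ± 0.08. Because the 1 h culture has no unstimulated culture of its own time, time in culture and the protein cannot be told apart in it.

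Few genes of the related lists were 2-fold apart between the stimulated cultures and the unstimulated culture of 24 h. At 1 h matricellular genes had 2 of 16 lower and 0 higher, Ccn5 and Tnn, both at -1.49 (median -0.17), and microfibril genes had 2 of 16 higher and 1 lower, the latent growth factor binding protein Ltbp1 at 1.15, the crosslinking enzyme Loxl1 at 1.14 and Eln at -1.01 (median -0.12). Among general fibroblast genes 1 of 13 was lower (Fndc1 -1.22; median -0.25) and among perineurium genes 1 of 6 (Itgb4 -1.33; median -0.39). The proteoglycan (7 measured, median -0.21), activated fibroblast (17, -0.11), receptor (10, 0.24), endoneurial (4, -0.26) and tendon (5, -0.04) lists had none. Of the Schwann cell markers 3 of 12 were at least 2-fold lower at 1 h and 0 higher (median -0.62; Ngfr -1.23), with a summed level of 17.72 against 18.39 unstimulated and 18.40 at 24 h. At 24 h 1 gene of these 9 lists passed 2-fold, Efemp1 of the microfibril list, at a log2 ratio of at least 1.39, and of the 12 Schwann cell markers 0 did (median 0.03). The part of the change of Schwann cell markers in the 1 h values of Mfap5 and Postn was not tested.

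The unstimulated Schwann cells and the contralateral nerve differed in age of the animals, culture and cell mix at once, which cannot be told apart here. Between them the resting and the scar matrix genes lay furthest apart. All 5 resting genes were at least 2-fold lower in the cultures. Dcn was at least 18456-fold lower (log2 ratio at most -14.17) and Lum at least 680.1-fold (at most -9.41), both bounds set by the lowest signal that was well above background on the deposited scale. With normexp on the matched scans the log2 ratios were -11.26 for Dcn and -6.45 for Lum, so these bounds hold for the deposited values only. Mfap5 was 58.7-fold lower (-5.88 ± 0.07), Pi16 40.8-fold (-5.35 ± 0.14) and Fbln1 8.67-fold (-3.12 ± 0.28; -2.15 with normexp), with the second Pi16 probe at -2.19. Tnc was 10.1-fold higher (3.33 ± 0.08) and Postn 5.37-fold (2.42 ± 0.08). Fn1 stood at 0.30 ± 0.07, with its second probe at 1.27, and Cthrc1 was 1.88-fold lower (-0.91 ± 0.10). Thy1, one of the named targets of the purification, was 3.56-fold higher in the cultures than in the nerve (1.83 ± 0.22). Of the 10 genes 3 were at least 2-fold higher and 5 lower, beside 21.5% and 20.8% of 11943 genes measured. The gap was 7.24 ± 0.09, and the median of all genes was itself at 0.22. The recorded pairing gave a gap of -2.17. In the scan filed under the unstimulated Schwann cells Pi16, Mfap5, Dcn and Lum were then higher (0.34, 2.32, 2.69 and 2.31). Postn and Thy1 were lower in it (-0.58 and -2.61). That scan ranks as the proximal nerve column does.

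General fibroblast genes had 14 of 16 at least 2-fold lower in the cultures and 1 higher, Mmp2 at 1.49 (median -3.62; Igfbp6 -9.41, Dpp4 at most -8.98). The proteoglycans had 7 of 9 lower and 0 higher (median -3.74; Fmod at most -11.03, Omd -9.16), endoneurial fibroblast genes 6 of 6 lower (median -4.91; Apod -6.62) and perineurium genes 8 of 10 lower and 0 higher (median -4.35; Cldn1 at most -10.31). The matricellular list was divided, with 6 of 18 higher and 7 lower (median -0.48), from Tnn at least 5.36 and Thbs1 at least 4.93 to Smoc2 -5.49 and Sparcl1 -10.55. So was the microfibril list, with 5 of 17 higher and 6 lower (median 0.06; Ltbp2 4.67, Efemp1 at most -10.39). Activated fibroblast genes had 10 of 17 higher and 4 lower (median 1.07; the collagen prolyl hydroxylase P4ha3 3.96, Cdh2 3.94, Fap -5.73), and receptors had 5 of 11 higher and 1 lower (median 0.85; Cd44 2.65, Ptprz1 2.20). Tendon and cartilage genes had 3 of 7 higher and 2 lower (median 0.56). All 12 macrophage markers were at least 2-fold lower in the cultures (median -5.59), 6 of them not well above background there, and 9 of 10 endothelial markers were lower and 0 higher (median -5.36).

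**Figure D4:**
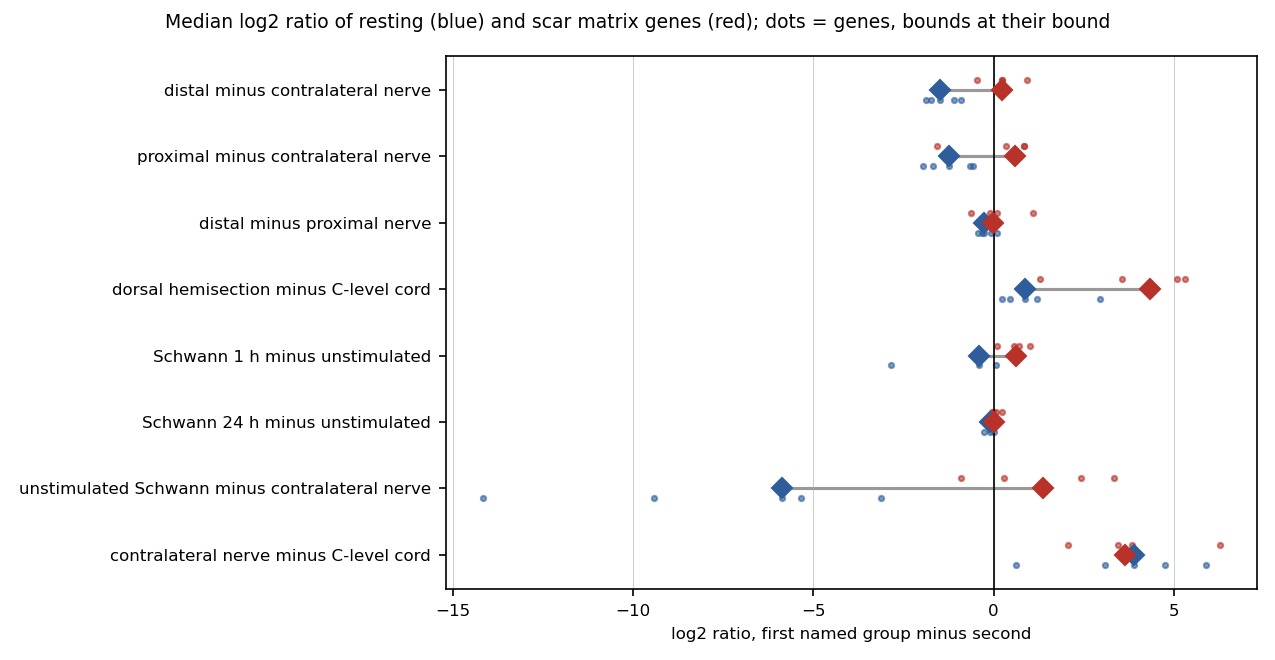
Median log2 ratio (x axis) of the resting (blue diamonds) and the scar matrix genes (red diamonds) in the 8 comparisons (y axis), with each gene as a dot and bounds drawn at their value. The medians lie 7.24 apart between Schwann cells and nerve, 3.46 apart in the cord and 0.14 apart in Schwann cells at 24 h.

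The contralateral nerve and the C-level cord, the control samples of the 2 tissues, differed in genes of both groups. Postn was 77.9-fold higher in the nerve (6.28 ± 0.31), Lum 59.4-fold (5.89 ± 0.16), Dcn 26.9-fold (4.75 ± 0.03), Cthrc1 14.4-fold (3.85 ± 0.31), Pi16 8.60-fold (3.10 ± 0.11) and Fn1 4.19-fold (2.07 ± 0.07). The second probes read 2.73 for Pi16 and 1.59 for Fn1. Mfap5 had a log2 ratio of 3.91 ± 0.07 and Tnc one of 3.46 ± 0.16. Fbln1 stood at 0.62 ± 0.10, and Thy1 was 13.6-fold lower (-3.77 ± 0.22). Thus 8 of the 10 genes were at least 2-fold higher in the nerve and 1 lower, beside 19.8% and 18.3% of 12214 genes measured. The gap was -0.25 ± 0.19, from medians of 3.65 for the scar matrix and 3.91 for the resting genes. It was -1.44 with normexp and -1.06 with the matched scans over their 75th percentile. Postn and Cthrc1 also lay closer together in the 2 samples with normexp. Postn then read 10.76 in the nerve and 6.59 in the C-level cord, and Cthrc1 9.23 and 6.77. In the recorded pairing Postn, Tnc and Fn1 were lower in the scan filed under the nerve (-3.46, -3.49 and -1.26) and Thy1 stood at 0.35. That scan ranks as the hemisection column does, and the one filed under the C-level cord as the Schwann cell column of 24 h. General fibroblast genes were at least 2-fold higher in the nerve in 16 of 16 (median 4.24; Sfrp4 6.90), and perineurium genes in 6 of 10, with 0 lower (median 2.72; Cldn1 8.08). Proteoglycans had 7 of 9 higher and 1 lower (median 2.52), microfibril genes 12 of 16 higher and 1 lower (median 2.59; Mfap2 5.49), matricellular genes 11 of 16 higher and 2 lower (median 2.18) and activated fibroblast genes 8 of 16 higher and 2 lower (median 1.01). The days of collection differed between the 2 tissues, day 1 and day 5, and cannot be told apart from the tissue.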

How the data were processed

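Total RNA was labelled with Cy3 and hybridised to Agilent arrays, 1 per group. Per the file headers, the scanner software was Feature Extraction 10.7.3.1 and the processed spot intensity is background-subtracted; the submitters' processing notes name version 10.5. The other deposited file is a table of log2 values made by the authors, with a median of 8.03 in every column, whose normalization and choice of probes no label or header gives. Of its 24938 rows 24894 are probes.

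By Spearman rho across probes each column had 1 near-exact match among the scans (next best at most 0.993). In 7 of 8 samples the match was a scan filed under a different sample, and the scan filed under the sample's own name had a rho of 0.802 to 0.900. Slopes against log2 processed signal were 0.936 to 1.09. Samples were named by column headings, and background flags and spot errors were read from the matching scan.

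Probe accessions were looked up in RefSeq (GRCr8), for names only, since the headers name build rn4: 15213 probes received a symbol and 9681 did not, and 2240 genes had several probes. Ratios are log2 differences of columns, kept where at least 1 of both arrays was well above background (10968 to 12242 genes). A probe not well above background on 1 array was set no lower than the lowest signal that was, which makes its ratio a bound. Technical errors came from replicate spots in 10 level bins per array. Calls were ratios of at least 2-fold, with no test. The gap is the median ratio of the scar matrix genes minus that of the resting genes.

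Named were all 10 genes and, of each list, up to 2 genes with the highest and 2 with the lowest ratio. The 10 genes and all lists were chosen with earlier results of these data known. Alternatives were the matched scans over their 75th percentile, normexp (offset 50, then quantile normalization) on the matched scans, the scans as recorded, the mean of a gene's probes, both arrays above background, no filter, and Thy1 among the resting genes. The ratio calculation was tested on simulated data. Python 3.11.15, pandas 2.3.3, numpy 2.4.6, R 4.3.3 and limma 3.58.1 were used. The number of arrays limits the precision.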

Additional observations from a re-analysis of the deposited data

Results flagged for a closer look

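Dcn was lower in both cut nerve segments than in the contralateral nerve, with log2 ratios of -1.48 distal and -1.23 proximal, and higher in the hemisection than in the C-level cord, at 1.21. Postn was lower in the proximal nerve, at -1.55, and higher in the hemisection, at 5.30; in the distal nerve it stood at -0.46 and did not pass 2-fold. Dcn in both nerve segments, and Postn in the proximal segment alone, thus passed 2-fold in the direction opposite to that in the cord. Each value compares 1 array with 1 array, the 2 nerve ratios share the contralateral array, and the difference between the tissues was not tested.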

How the results depend on the processing

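No paired analysis was possible because every group had 1 array, and no replicate could be left out. Of 35 ratios of the 10 genes that passed 2-fold, 35 kept their sign with the matched scans over their 75th percentile and 35 with normexp, of which 32 still passed 2-fold. With the scans as recorded 15 kept their sign, 18 turned and 2 were not measured. By that record the gap between scar matrix and resting genes was -1.69 in the distal and 7.78 in the proximal against the contralateral nerve, -9.34 in the distal against the proximal nerve, -0.14 in the cord, -1.79 and -1.33 in Schwann cells at 1 h and 24 h, -2.17 in Schwann cells against nerve and -6.24 in nerve against cord. The genes at least 2-fold apart then numbered 10 in the proximal nerve, 9 between the segments, 0 in the cord (of 8 measured), 4 and 9 in Schwann cells at 1 h and 24 h and 5 in Schwann cells against nerve. Ratios that turned were those of Pi16 (0.44), Mfap5 (2.26) and Dcn (2.42) in the distal nerve, Postn in the proximal nerve (4.59) and between the segments (-4.12), Tnc (-0.25) and Cthrc1 (-0.06) in the cord, and Mfap5 in Schwann cells at 1 h (1.59). In Schwann cells against nerve they were Pi16 (0.34), Mfap5 (2.32), Dcn (2.69), Lum (2.31), Postn (-0.58) and Thy1 (-2.61), and in nerve against cord Postn (-3.46), Tnc (-3.49), Fn1 (-1.26) and Thy1 (0.35). These values compare other scans than the headings name. By the record both cord samples would hold scans that rank as Schwann cell columns do, unstimulated and 24 h, where the summed neuron markers were 13.08 and 13.04, against 17.63 and 16.23 in the columns headed as cord. Between these kinds of sample the neuron markers thus went with the headings. Within 1 kind the pairing was not tested.

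With the mean of a gene's probes the gap was 1.90 distal, 1.96 proximal, 3.86 in the cord and 7.48 in Schwann cells against nerve. With Thy1 among the resting genes it was 1.53 distal, 1.54 proximal, 0.15 between the segments, 6.98 in Schwann cells against nerve and 0.15 in nerve against cord, where it had been below 0. The matched scans over their 75th percentile gave 2.96 in the cord and -1.06 in nerve against cord, and normexp 2.04 and -1.44. With normexp 0 genes were 2-fold apart between the segments and 1 in Schwann cells at 1 h. With both arrays above background the gap in Schwann cells against nerve was 6.72, since Dcn and Lum then had no value. Beyond that last case the cause was not tested. The median of all genes in Schwann cells against nerve was 0.22, and 0.09 with the 75th percentile. Signal over background limits Dcn and Lum in the cultures to bounds, and Fbln1 there to errors up to 0.57.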

Other observations

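For 8 of the 10 genes, those well above background on all 8 arrays, the 3 genes of most alike pattern were sought among all 12765, as the smallest root mean square difference of centred log2 levels over the 8 arrays. The 8 points come from 3 kinds of sample, nerve, cord and culture, and share 1 normalization. Pi16 was nearest to Prelp, itself a small leucine-rich proteoglycan (0.30), Slc22a18 (0.35) and Mustn1 (0.35). Mfap5 was nearest to Cyb5r2 (0.63), C1s (0.65) and Itgbl1 (0.73). Fbln1 was nearest to RT1-A2 (0.20), Myzap (0.27) and Slc2a1 (0.28). Among the scar matrix genes Postn was nearest to Gask1b (0.88), Tnc (0.90) and the collagen gene Col1a1 (0.90), and Tnc to Col18a1 (0.47), Kremen1 (0.49) and Gask1b (0.56). Cthrc1 was nearest to Bik (0.63), Cyp1b1 (0.72) and Ctsc (0.75), Fn1 to Rbms1 (0.11), Bnip2 (0.13) and Ier2 (0.16), and Thy1 to Spdya (0.19), Pmch (0.19) and Tmem25 (0.22).

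Distances within the 10 genes were taken the same way, leaving out Dcn and Lum, whose Schwann cell readings were not well above background, and Thy1, which is in neither group. The nearest pairs were Pi16 with Fbln1 (0.78) and Postn with Tnc (0.90), and the furthest was Mfap5 with Postn (4.81). The 3 pairs of resting genes lay between 0.78 and 1.62 apart (median 1.13) and the 6 pairs of scar matrix genes between 0.90 and 2.58 (median 1.97). The 12 mixed pairs lay between 1.91 and 4.81 (median 3.21). The narrow range of the resting pairs depended on leaving out Dcn and Lum. With both kept, the 10 resting pairs lay between 0.78 and 5.02 (median 2.62). The 20 mixed pairs then lay between 1.91 and 8.53 (median 4.18).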
